A study of Mus musculus with 6 samples.

Results

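p65 is the subunit of NF-κB encoded by Rela, and ChIP–seq for p65 reads out the DNA recovered with an antibody to it, so that occupied places stand out as peaks. The sites described here are the peaks called in epidermal cells of adult mice that did not overlap, by even 1 bp, a peak of either aged condition. They numbered 3002 of the 8525 adult peaks, 35.2% (95% Wilson interval 34.2 to 36.2%), out of 18708 peaks in the 3 lists together. The share was 18.4% of the 5650 adult peaks with a −log10 q of at least 10, 16.5% with the 4169 strongest peaks of each list and 12.7% of 6014 when the adult list traded places with that of aged/anti-IL-17A/F. The sites were chosen by the measured peak calls themselves, so that their absence from the aged lists is the definition and not a finding.

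All mice were C57bl/6J, and each list was called on the pooled reads of 4 mice. Adult mice were 17 to 25 weeks old and had no treatment in the labels. Aged mice had received either control IgG (aged/IgG control, 4169 peaks) or neutralizing antibodies against IL-17A and IL-17F (aged/anti-IL-17A/F, 6014 peaks) for 12 weeks from 73 weeks of age. Because there is 1 pooled list per condition, no value has a spread between mice and no test between conditions was possible. Intervals and P values below compare peaks inside the adult list, which are not replicates, and cover counting error only. The lists do not give the number of reads at a peak.

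The peak names are at odds with the labels. All 8525 peaks in the adult list have names that begin with "Treated_m", the prefix also used in the aged/anti-IL-17A/F list, although the peaks themselves differ. The labels were followed, and the main values are also given with these lists exchanged. The labelled cell type was checked against marker genes, bearing in mind that a p65 peak is not a measure of RNA. Of 8 keratinocyte markers, 7 had an adult peak nearest to them (Krt5, Krt14, Krt15, Krt1, Krt10, Trp63 and Itga6), and 3 of these had an adult-only one. None of 4 melanocyte or 4 T cell markers had an adult peak. For Langerhans cells 2 of 3 had one (Epcam and H2-Ab1), and 1 of these had an adult-only one. For fibroblasts it was 1 of 4 (Pdgfra), with no adult-only peak. Over all genes, 4838 of 21000 protein-coding ones had an adult peak, and 2215 of the 4838 had an adult-only one. The marker counts are small and were not tested.

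NF-κB dimers are held in the cytoplasm by inhibitors of the IκB family until signals such as TNF, IL-1 or IL-17 lead to the breakdown of the inhibitor. The dimer then enters the nucleus and binds κB sites, short near-palindromic sequences that start with a run of G and end with a run of C. In keratinocytes the pathway is known for driving cytokine, chemokine and antimicrobial genes and for its part in survival and differentiation.

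To show what the adult-only sites with a recognizable motif look like, 41 bases of the reference genome (RefSeq, mm10 build) around the match nearest the summit are given, with the match to the 10-letter NF-κB consensus in capitals, written 5′ to 3′ on the strand that holds it. The first 5 are the strongest adult-only peaks with a match outside exons, 1 chromosome being left out of the sequences.
1110019D14Rik (chr6:13952558-13952598, plus strand): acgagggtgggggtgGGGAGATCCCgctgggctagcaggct
Trim69 (chr2:122156130-122156170, minus strand): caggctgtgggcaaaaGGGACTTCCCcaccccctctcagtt
Paqr3 (chr5:97111723-97111763, minus strand): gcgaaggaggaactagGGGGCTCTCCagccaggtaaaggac
Gm29681 (chr5:131592160-131592200, plus strand): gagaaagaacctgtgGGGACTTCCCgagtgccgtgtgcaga
A430090L17Rik (chr13:114158433-114158473, plus strand): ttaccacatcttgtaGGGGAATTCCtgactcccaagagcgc

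The next 6 belong to genes of the lists described below whose adult peaks were all adult-only. They include a growth factor (Areg), a nonclassical MHC gene (H2-T23), genes of ribosomal proteins (Rps27 and Rpl5), an initiator of apoptosis (Casp8) and an antimicrobial alarmin (S100a9).
Areg (chr5:91114092-91114132, minus strand): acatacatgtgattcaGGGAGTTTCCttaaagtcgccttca
H2-T23 (chr17:36030431-36030471, plus strand): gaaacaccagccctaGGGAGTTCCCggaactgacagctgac
Rps27 (chr3:90160621-90160661, plus strand): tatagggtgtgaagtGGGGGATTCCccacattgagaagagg
Rpl5 (chr5:107900670-107900710, minus strand): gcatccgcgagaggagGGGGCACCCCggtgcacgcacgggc
Casp8 (chr1:58857024-58857064, plus strand): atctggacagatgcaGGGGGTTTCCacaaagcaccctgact
S100a9 (chr3:90708685-90708725, plus strand): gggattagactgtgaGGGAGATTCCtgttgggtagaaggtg

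Each site carries the name of the gene with the nearest start site, which need not be a gene that p65 regulates. The match lay 0.5 bp from the middle of the summit at H2-T23 and 92.5 bp at Paqr3, the extremes among the 11. The Rps27 site lies 53017 bp from the Rps27 start, in an intron of Nup210l, and the Rpl5 site lies 153 bp from the Rpl5 start.

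Adult-only sites were weak peaks. Fold enrichment is the authors' ratio of reads at the summit to the local background, and it ran from 1.97 to 5.71 at adult-only sites, with a median of 3.03 and quartiles of 2.71 and 3.43. The median was 3.43 for the 1644 adult peaks shared with aged/anti-IL-17A/F alone, 3.37 for the 377 shared with aged/IgG control alone and 5.18 for the 3502 found in all 3 lists. The median −log10 q, the strength of the call, was 8.42 against 32.4 for peaks in all 3 lists. A −log10 q under 5 was held by 368 adult-only peaks (12.3%), and one of at least 10 by 1042 (34.7%). Peak strength is bound up with the rule that chose the sites, so these values are a description.

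When adult peaks were split into deciles of fold enrichment, 67.4% of the weakest decile was adult-only, 44.3% of the fifth decile, 6.92% of the eighth and 0.939% of the ninth. None of the 853 strongest adult peaks, with a fold enrichment from 7.14 to 23.6, was adult-only, and all of these were called in every list.

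**Figure D1:**
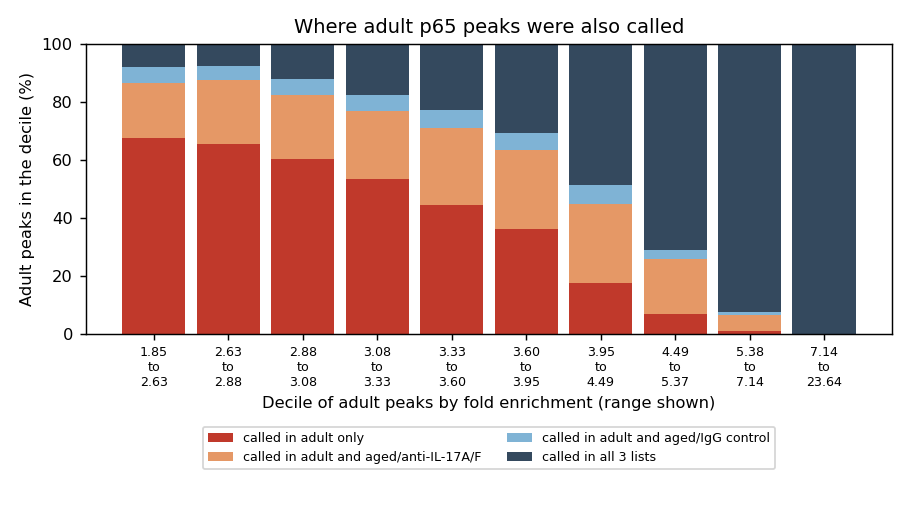
Share of adult p65 peaks (percent, stacked bars) in each decile of fold enrichment that was called in adult only, in adult and one aged condition, or in all 3 lists. The adult-only share is 67.4% in the weakest decile and 0% in the strongest.

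The distance to the nearest aged peak of either list had a median of 34581.5 bp and quartiles of 8011 and 109623 bp. An aged peak lay within 1000 bp of 226 adult-only peaks (7.53%) and within 10000 bp of 843 (28.1%), whereas 790 (26.3%) had none within 100000 bp. At the edge of the rule, the adult-only peak nearest to Scel, which encodes the cornified envelope protein sciellin, missed an aged peak by 11 bp at a fold enrichment of 2.84. The next were nearest to Ets2 (18 bp, fold enrichment 3.13) and Psme3 (20 bp, 5.05). Just outside were peaks nearest to Vps52, which overlapped an aged peak by 17 bp at a fold enrichment of 2.17, Fam189a2 (20 bp, 3.21) and 2900026A02Rik (34 bp, 2.67).

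The strongest adult-only peaks did not share a single setting. The peak of highest fold enrichment (5.71, chr2:118554288-118554946) lay in intergenic sequence 4931 bp upstream of Bmf, which encodes a proapoptotic BH3-only protein, and the nearest aged peak was 65657 bp away. The next (5.71, chr4:117133722-117134532) lay 164 bp upstream of Plk3, a stress-responsive polo-like kinase, in a window of 70.6% GC. Peaks at the starts of Cpt2 (5.53), a mitochondrial enzyme of fatty acid oxidation, and Mapk8 (5.41), which encodes the kinase JNK1, followed the same pattern, lying 114 and 123 bp from a start site.

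Others were distal. An intronic peak of Ank (5.55), which encodes a transporter that governs extracellular pyrophosphate, lay 11088 bp into the gene. Peaks nearest to 1110019D14Rik (5.48), Cyp26b1 (5.44), Erg (5.41) and Wdyhv1 (5.32) lay from 30094 to 81006 bp from the start site. Cyp26b1 breaks down retinoic acid, and Erg is an ETS factor best known from endothelium. A peak at Nipal1 (5.37) lay 637 bp from its start. Of these 10 peaks, those at Cpt2 and 1110019D14Rik held the NF-κB motif. Their fold enrichments stood between the 79.5th and 82.6th percentiles of all adult peaks.

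Position along genes was not used by the rule and was compared within deciles of fold enrichment. Within 1 kb of a transcription start site lay 1245 adult-only peaks, 41.5% (39.7 to 43.2%). The other adult peaks, weighted to the same strength, had 41.3%, a difference of 0.13 percentage points (95% interval −2.55 to 2.82, adjusted P = 0.90 by a Cochran–Mantel–Haenszel chi-square test over the 9 deciles that held adult-only peaks, Benjamini–Hochberg over 22 features). Without matching, the other adult peaks had 34.4%, 7.05 points fewer. With width matched as well as fold enrichment, the difference was 5.27 points (2.57 to 7.96, chi-square adjusted P = 4e-04), and it was 4.47 (1.75 to 7.19) when shared peaks had to overlap by 50% of both. When the adult list traded places with that of aged/anti-IL-17A/F, it was −9.80 points (−13.5 to −6.11, chi-square adjusted P = 2.4e-06).

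The promoter share differed with strength in both sets. It was 55.0% of adult-only and 49.5% of other adult peaks in the weakest decile and 26.9% and 27.4% in the seventh, and among the few adult-only peaks of the eighth and ninth it was 30.5% and 37.5%. Beyond promoters, 621 adult-only peaks (20.7%) lay 1 to 10 kb from a start site, 772 (25.7%) 10 to 50 kb away and 364 (12.1%) farther. These distal peaks divided between introns (816) and intergenic sequence (893), with 48 in exons. Promoter and distal sites differed in composition. The 201 bp around the summit had a median GC content of 65.2% and 17 CpG dinucleotides at promoter sites, against 51.2% and 3 at distal ones. The nearest gene was protein-coding for 2611 sites (87.0%), a microRNA for 69 and another noncoding gene for 322.

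Adult-only peaks were spread over the chromosomes, from 31.5% of the adult peaks on chromosome 19 (26.7 to 36.9%) to 41.5% of the 65 on chromosome X (30.4 to 53.7%). Both intervals include the share over the whole list, whereas that of chromosome 5 does not, with 208 adult-only peaks of 521 (39.9%, 35.8 to 44.2%), the 1 exception among 20 chromosomes, which were not tested.

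The NF-κB motif was less frequent at adult-only sites than at other adult peaks of the same strength. It was found within 100 bp of 452 of the 3002 summits, 15.1% (13.8 to 16.4%), against 20.4% of other adult peaks weighted to the same deciles and 35.8% of them unweighted. The matched difference was −5.37 points (−7.36 to −3.38, adjusted P = 3.1e-07 by the same chi-square test). Windows of the same length 2000 bp to either side of adult-only summits held the motif in 2.32%. The share at adult-only sites was the lower one in 9 of 9 deciles, though in single deciles the 95% intervals overlapped, the third excepted. It was 7.79% against 11.1% in the weakest decile, 12.9% against 21.9% in the third and 27.6% against 34.7% in the seventh.

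**Figure D2:**
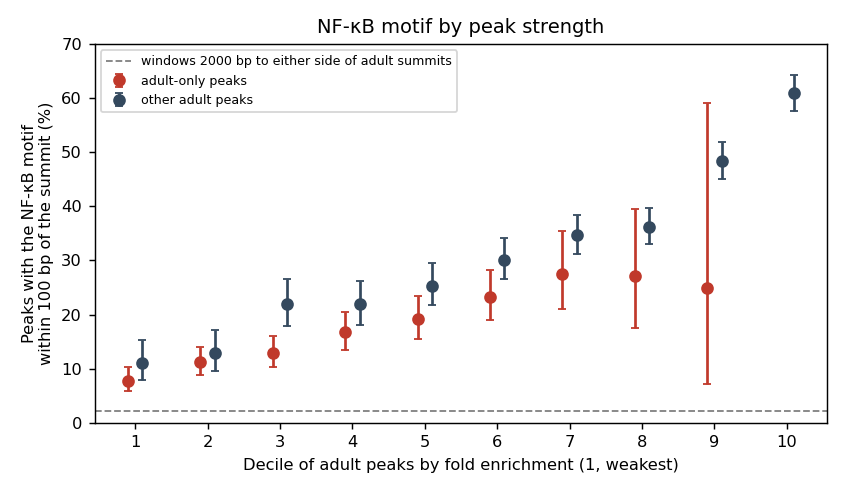
Percent of adult peaks with the NF-κB consensus within 100 bp of the summit, by decile of fold enrichment, for adult-only and other adult peaks, with 95% Wilson intervals as bars. The adult-only points lie below the others in all 9 deciles that have both, and both lie above the 2.18% found in windows beside adult summits (dashed line).

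Within a decile, adult-only peaks still had a lower −log10 q than the others, 9.31 against 10.9 on average, and were narrower, 401 against 465 bp. These measures are bound up with the rule. When peaks were matched on −log10 q in place of fold enrichment, the motif difference was −4.41 points (−6.52 to −2.31), on both together −6.33 (chi-square adjusted P = 8.4e-08), and on fold enrichment and width −6.57 (−8.70 to −4.44). After the same exchange of lists, the 762 peaks called in aged/anti-IL-17A/F alone showed a difference of 1.05 points (−2.22 to 4.32, chi-square adjusted P = 0.41), so that the direction and the call both rest on which list is the adult one.

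The motif difference was seen at promoters and away from them. At promoters, 138 of 1245 adult-only peaks (11.1%) held the motif against 14.0% of other adult peaks of the same strength (−2.91 points, −5.65 to −0.17, chi-square adjusted P = 0.037 over 8 comparisons). At distal sites, 314 of 1757 (17.9%) held it against 24.9% (−7.07 points, −9.83 to −4.31, chi-square adjusted P = 1e-06). Taken by class, the difference was −5.36 points (−7.78 to −2.94) from peaks shared with aged/anti-IL-17A/F alone and −7.08 (−10.3 to −3.82) from peaks in all 3 lists. From the 377 peaks shared with aged/IgG control alone it was −1.08 points (−5.24 to 3.08, chi-square adjusted P = 0.89), an interval that includes 0.

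Where the motif was present, it was somewhat less centred. The nearest match lay a median of 29.5 bp from the summit at adult-only peaks and 22.5 bp at other adult peaks, and within 50 bp in 72.1% and 82.2% of them. More than 1 match was held by 67 adult-only peaks, 14.8% of those with a match, against 21.5% for the others. These values were not matched for strength. Among 58 distinct versions of the motif at adult-only sites, the most frequent was GGGACTTTCC, the classical κB sequence, with 32 sites (7.08% of matches, against 9.16% at other adult peaks). Next came GGGACTTCCC with 22 sites, as printed above for Trim69 and Gm29681, and GGGGAATTCC and GGGGCTTCCC with 20 each. The last made up 4.42% of matches (2.88 to 6.74%) against 2.33% elsewhere. GGGACTTCCC (4.87% against 5.27%) and GGGGAATTCC (4.42% against 5.06%) went the other way. No version was tested, and the interval takes no account of the number of versions.

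A shorter κB sequence, GGNNTTTCC, overlaps the consensus and was also less frequent, with 13.0% of adult-only against 18.3% of other adult peaks (−5.33 points, −7.25 to −3.41, chi-square adjusted P = 6.2e-08). It was at 3.31% of the windows beside adult-only summits. With an equal number of peaks per list its difference was −4.88 points and not past the threshold (chi-square adjusted P = 0.072), and with the lists exchanged it was 2.50 points (chi-square adjusted P = 0.15).

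Of 17 further motifs, sought on both strands in the same window, 1 passed the threshold. The CTCF motif, bound by the insulator protein that anchors chromatin loops, was at 24 adult-only summits, 0.799% (0.538 to 1.19%), against 0.237% of other adult peaks of the same strength (0.56 points, 0.20 to 0.92, chi-square adjusted P = 0.0056) and 0.117% of flanking windows. This rests on few sites, was not past the threshold with an equal number of peaks per list (0.48 points, chi-square adjusted P = 0.44) or without matching (0.31 points, adjusted P = 0.15), and had the opposite sign with the lists exchanged (−0.43 points, adjusted P = 0.15).

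The AP-1 motif TGANTCA, bound by Jun and Fos dimers, was at 11.2% of adult-only and 13.2% of other adult peaks (−2.00 points, chi-square adjusted P = 0.21), with 6.06% in flanking windows. With width matched as well, its difference was −3.27 points (chi-square adjusted P = 0.0053). The C/EBP motif TTGCNNAA, of factors that act in keratinocyte differentiation, was at 10.3% against 8.72% (1.58 points, chi-square adjusted P = 0.052), and 8.39% of flanking windows held it too. Its adjusted P was 0.038 when shared peaks had to overlap by 50% and 0.0045 with a −log10 q of at least 5 in every list. The GC box GGGCGG, of Sp and Klf factors, was at 28.9% against 29.1% (−0.21 points, −2.72 to 2.29) and 4.35% of flanking windows, and the p53-family half-site, which p63 also binds, at 7.86% against 7.95% (−0.09 points, −1.53 to 1.36) and 7.16% of flanking windows. Without matching the GC box difference was 4.58 points and that of AP-1 −3.11, both past the threshold, and after the exchange of lists that of the GC box was −8.58 points (chi-square adjusted P = 1e-05).

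**Figure D3:**
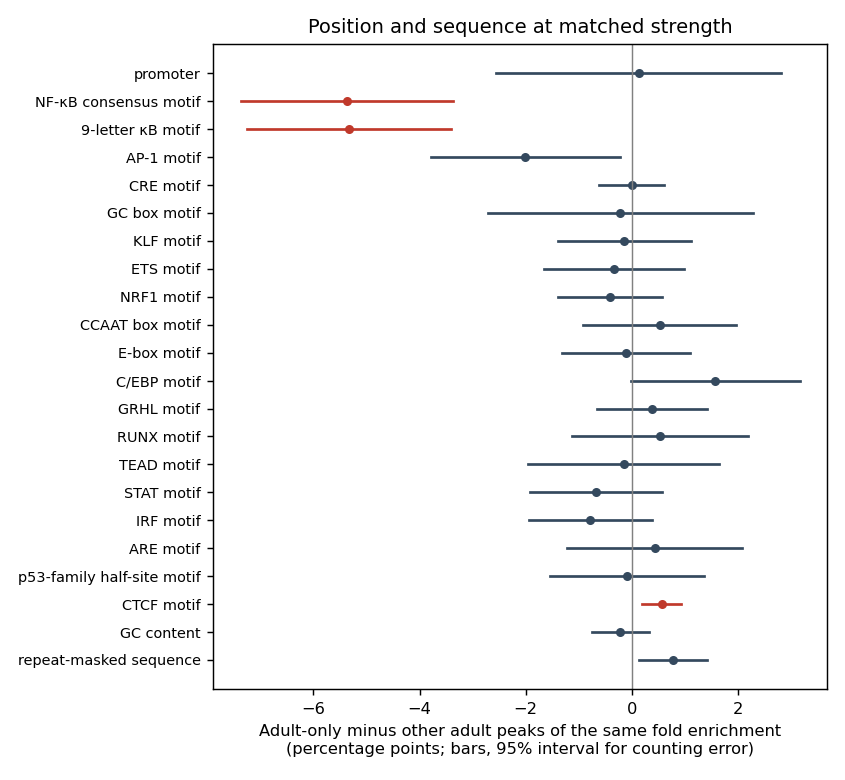
Difference between adult-only and other adult peaks of the same fold enrichment (percentage points) for 22 features, with 95% intervals; red marks an adjusted P under 0.05 by a separate test, so that an interval and a mark can disagree. Both κB sequences lie near −5 points and CTCF near 0.56, and the promoter share lies at 0.13.

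GC content averaged 57.1% at adult-only and 57.3% at other adult peaks of the same strength (−0.21 points, −0.75 to 0.32, adjusted P = 0.83 by a z test over peaks, n = 3002 and 5523). With width matched as well, the difference turned to 0.80 points (0.25 to 1.35, adjusted P = 0.016, n = 3002 and 5523), and after the exchange of lists it was −2.36 (−3.16 to −1.57). Repeat-masked sequence made up 7.61% against 6.84% (0.78 points, 0.14 to 1.42, adjusted P = 0.076, n = 3002 and 5523).

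Adult-only sites were more often additions to genes with other adult peaks, or single peaks at a gene, than clusters of their own. Of 4838 protein-coding genes with an adult peak, 2215 had at least 1 adult-only peak. For 1403 genes, 29% of those with an adult peak, all adult peaks were adult-only, and 1286 of these had a single peak. The other 812 genes held shared adult peaks as well, and 1078 adult-only peaks (41.3% of those at protein-coding genes) lay at such genes. No peak of either aged list was assigned to 1326 of the 1403 genes, and the remaining ones had an aged peak elsewhere. A single adult-only peak was held by 1896 genes and 2 by 264, while 40 genes had 3, 10 had 4, 4 had 5 and 1 had 7.

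The gene with the most adult-only peaks was Sik1, a salt-inducible kinase that restrains CRTC coactivators, with 7 of its 15 adult peaks. These 7 had fold enrichments between 2.09 and 3.37 and lay from 79605 bp downstream to 82556 bp upstream of the start site. They alternated with strong peaks of all 3 lists, the highest of which reached 18.4 and lay 48320 bp upstream. The adult-only peak 82556 bp upstream (chr17:31938161-31938560) missed an aged/IgG control peak by 46 bp. None of the 7 held the NF-κB motif.

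Socs3, the feedback inhibitor of cytokine signaling through STAT3, had 5 adult-only peaks among 6. Their fold enrichments were 2.40, 2.88, 3.44, 3.49 and 3.65, and the last, 19434 bp downstream of the start (chr11:117949586-117950279), held the motif. The sixth peak, at the start site itself, reached 4.58 and was also called in aged/anti-IL-17A/F. The nearest aged/IgG control peak was 37455 bp or more from each of the 5, while the one 528 bp upstream of the start missed an aged/anti-IL-17A/F peak by 95 bp.

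**Figure D4:**
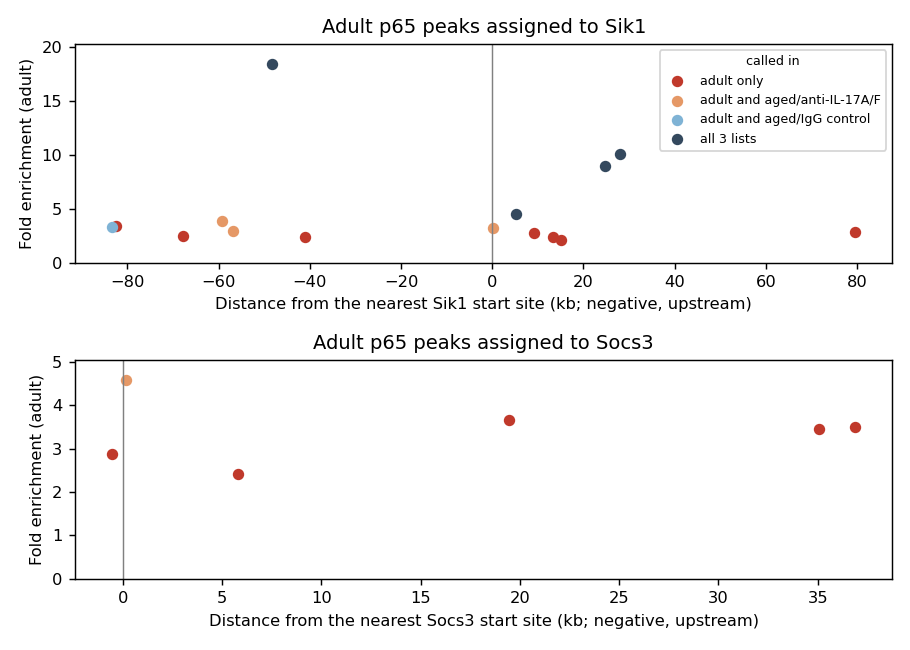
Fold enrichment of every adult p65 peak assigned to Sik1 (top) and Socs3 (bottom) against the distance from the nearest start site of the gene (kb), colored by the lists in which it was called. The 7 adult-only peaks of Sik1 lie between 2.09 and 3.37, below its strongest shared peaks, and 5 of the 6 peaks of Socs3 are adult-only.

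Ablim1 and Golph3 also had 5 adult-only peaks each. Ablim1 encodes an actin-binding LIM protein, and its adult-only peaks ranged from 2.78 to 3.12. The sites named for Golph3, a Golgi protein, all lay in Pdzd2, a neighboring gene, 118086 bp or more from the Golph3 start.

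Genes of 17 lists were then described by counts. Of their 331 genes with an adult peak, 69 (20.8%) had adult-only peaks alone, against 29% over all protein-coding genes with an adult peak. Neither share was matched for the number of peaks per gene or for peak strength. No aged peak was assigned to 59 of the 69, while the others had one elsewhere. Their 675 adult peaks included 209 adult-only ones, and the shares in the deciles of fold enrichment would give 219. The counts below are read against such numbers, and they were not tested. The number of genes with adult-only peaks alone moved by over 1.5 times in 14 of the 17 lists after the exchange of lists, in 12 with a −log10 q of at least 10 in adult, in 11 with equal numbers of peaks per list, in 4 with a −log10 q of at least 5 in every list and in 1 each with a 50% overlap and with distance from the summit. After the exchange no list had more than 4 such genes, the number for ribosomal proteins, and keratins, AP-1 subunits and DNA repair had 0.

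Adult peaks of genes of the NF-κB pathway itself were strong, with a median fold enrichment of 6.02, against 3.74 over all lists joined. Few of them were adult-only, which was not tested. Of 20 genes of subunits and inhibitors with an adult peak, Traf6, an adaptor ligase of IL-1 and IL-17 receptors, was the 1 with adult-only binding alone (fold enrichment 2.68, with the motif, 964 bp from the start). Its −log10 q was 4.95, and no gene of the list remained in this class with a −log10 q of at least 5 in every list. Rela and Relb, which encode p65 and RelB, had 2 adult peaks each and no adult-only one. The list had 6 adult-only peaks of 55, beside 10.2 given by the deciles.

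Among 10 genes of IL-17 receptor signaling with an adult peak, 3 had adult-only peaks alone. These were S100a9 (3.45), whose site is printed above, Il6 (3.07), the cytokine gene, 64 bp from its start, and Il17rc (2.78), which encodes a chain of the receptor for IL-17A and IL-17F, 718 bp from its start. The list held 6 adult-only peaks of 16, beside 5.95. Among 23 genes of cytokines, chemokines and their receptors, 5 had adult-only peaks alone. They were the receptor genes Il1r1 (−log10 q 15.7, in the gene's intron 6010 bp from the start), Il15ra (fold enrichment 3.74 and 3.67) and Tnfrsf1a (3.55), Il1b (3.03) and its antagonist Il1rn (2.31). The Il1b site lay 36575 bp upstream, and the Tnfrsf1a site missed an aged/anti-IL-17A/F peak by 394 bp. An aged/IgG control peak lay 5566 bp from the Il1r1 site. The list had 9 adult-only peaks of 36, beside 8.54.

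Of 16 keratin genes with an adult peak, Krt23 (3.39), Krt10 (3.33), Krt7 (3.01) and Krt31 (2.61) had adult-only peaks alone, and 2 of these 4 had no aged peak. The nearest aged peak was 11256 bp from the Krt31 site. Krt10 marks suprabasal keratinocytes, and its site, 1801 bp upstream of the start, lay 706 bp from an aged/IgG control peak. The Krt23 site lay 62 bp upstream of the start and held the motif. Krt14, the basal keratin, was not among them, since its promoter peak (3.22) was also called in aged/anti-IL-17A/F. Keratin genes had 9 adult-only peaks of 24, beside 9.22.

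Genes of the cornified envelope and of terminal differentiation had 28 adult-only peaks of 59, beside 22.5 from the deciles, the widest gap above the deciles among the 17 lists. Of 26 such genes, 11 had both kinds of peak, such as Abca12, the lipid transporter of lamellar granules, with 4 adult-only peaks of 5, and Asprv1, a protease of the granular layer, with 4 of 6; these were singled out after their values were seen. Adult-only peaks alone were found at Smpd1 (3.33), Scd2 (3.32), Elovl4 (3.30) and Abhd5 (2.09), all genes of lipid metabolism. The list holds other lipid genes, such as Alox12b, Cers3 and Scd1, whose adult peaks were not all adult-only. These 4 were 15.4% of the 26 genes, against 29% over all protein-coding genes with an adult peak. Evpl, which encodes envoplakin, had a single adult peak (2.39) that was also called in aged/anti-IL-17A/F.

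Of 36 genes of desmosomes, junctions and adhesion, 9 had adult-only peaks alone. The strongest were Cldn12 (4.16), a claudin, with its peak 4 bp from the start and the nearest aged peak 2004759 bp away, Nectin4 (4.01), Nectin2 (3.84) and Itga6 (3.69), the integrin chain of hemidesmosomes. The others were Tjp1, which encodes the tight junction scaffold ZO-1, Dsp (desmoplakin), Cdsn (corneodesmosin), Fermt1 (kindlin-1) and Col7a1 (anchoring fibril collagen), at 2.14 to 3.61. Another peak was assigned to Dsp in aged/anti-IL-17A/F. The list had 35 adult-only peaks of 93, beside 34.3.

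Of 38 genes of epidermal transcription factors with an adult peak, 19 had no adult-only peak, 16 had both kinds and 3 had adult-only peaks alone, among them Yap1 (4.23) and Barx2 (3.19 and 2.73). Both aged lists held other peaks of Barx2. Yap1 encodes the Hippo pathway coactivator, and its peak lay 33 bp upstream of the start. Adult-only peaks numbered 35 of 111, beside 36.6.

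Of 30 genes of Notch, EGF receptor and hedgehog signaling, 8 had adult-only peaks alone. The EGF receptor ligand gene Areg (4.51) and the receptor's feedback inhibitor Errfi1 (4.21) led, followed by Gli2 (3.39), which encodes a transcription factor of the hedgehog pathway. The Notch ligand gene Dll1 (2.34) had 1 peak, 3551 bp upstream, and aged/anti-IL-17A/F had its nearest peak 53568 bp away. Jag2, Notch3 and Adam10, which encode a ligand, a receptor and a processing protease of the pathway, were also among them, at 2.25 to 2.88. Adult-only peaks numbered 19 of 56, beside 18.7.

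**Figure D5:**
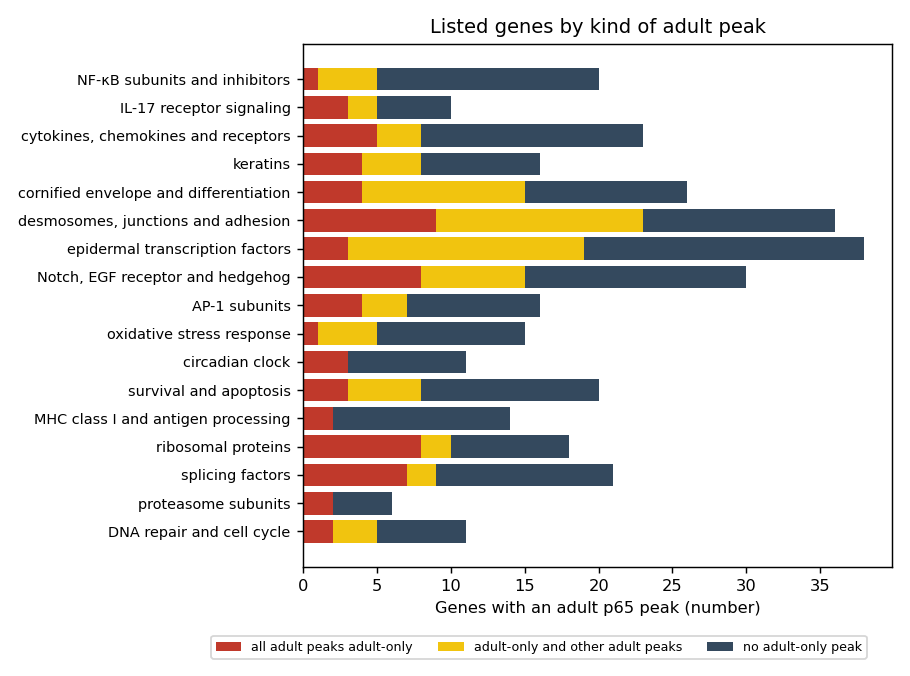
Number of genes with an adult p65 peak in each of 17 lists, split into genes whose adult peaks were all adult-only, genes with both kinds and genes with none. With the lists as labelled, genes with adult-only peaks alone number 9 of 36 for desmosomes, junctions and adhesion and 1 of 20 for NF-κB subunits and inhibitors (3 and 1 after the exchange of lists).

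Stress and clock genes gave small numbers. AP-1 subunits had 9 adult-only peaks of 47, beside 12.7, with Batf3 (2.73), Atf5 (2.68), Mafk (2.46) and Atf6 (2.46) bound at adult-only sites alone. The Atf5 site missed an aged/IgG control peak by 524 bp. Oxidative stress genes had 6 of 27, beside 7.32, with Prdx1 (3.96), a peroxiredoxin, as the 1 gene with an adult-only peak alone, though another peak was assigned to it in aged/anti-IL-17A/F. Of 11 clock genes, Rora, a nuclear receptor that activates Bmal1, had 4 adult peaks, all adult-only (2.88 to 3.54) and all in its introns, 2 of them with the motif, and the strongest missed an aged/anti-IL-17A/F peak by 897 bp. The clock genes Tef (3.37) and Cry2 (2.14) had 1 each. Clock genes had 6 adult-only peaks of 20, beside 5.53.

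Genes of survival and apoptosis had 10 adult-only peaks of 41, beside 14.0. Those with adult-only peaks alone were Casp8 (3.54 and 2.40, the latter 287 bp from an aged/anti-IL-17A/F peak), Malt1 (3.52), a protease of NF-κB signaling, and Pmaip1 (2.69), which encodes the proapoptotic protein Noxa. Of 14 genes of MHC class I and antigen processing, H2-T23 (4.37, in an intron of A930015D03Rik) and Pdia3 (2.43), a chaperone of the loading complex, had adult-only peaks alone (1 gene in place of 2 when distance was taken from the summit), and the list had 2 such peaks of 16, beside 2.01.

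Among housekeeping genes, those of ribosomal proteins and splicing factors had weak adult peaks, with a median fold enrichment of 3.30 and 2.95. Of 18 genes of ribosomal proteins with an adult peak, 8 had adult-only peaks alone (44.4%), led by Rps27 (4.04), Rpl5 (3.95), Rpl17 (3.40) and Rpsa (3.20). Their 10 adult-only peaks of 20 stood beside 9.59 from the deciles, so that the share is close to what their fold enrichments give. Of 21 genes of splicing factors, 7 had adult-only peaks alone, among them Hnrnpl (3.07, 2.76 and 2.47), Ddx17 (2.79), Snrpb (2.61) and Hnrnpa2b1 (2.53), and the list had 12 such peaks of 27, beside 14.7. Proteasome genes had 2 of 11, beside 2.02, at Psmd12 (5.06) and Psmd3 (2.57). Genes of DNA repair and the cell cycle had 5 of 16, beside 5.39, with Rb1 (4.09), the retinoblastoma gene, and Ccna2 (3.33), the gene of cyclin A2, bound at adult-only sites alone.

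Promoter peaks with the motif were the rarer combination, 138 of 3002 sites. The 5 strongest lay at Cpt2 (5.53), Tmem131l (5.01), Paqr3 (4.99), Zc2hc1c (4.77) and Evi5 (4.54). Paqr3 encodes a Golgi protein that tethers RAF kinases, and its peak, whose motif is printed above, lay 84 bp upstream of the start in a window of 71.6% GC. The Evi5 peak (chr5:107868700-107869388) lay 4 bp from the start of this GTPase regulator gene. The nearest aged peak was 7917 bp away or farther at all 5.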

How the data were processed

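The authors trimmed reads with Trimmomatic 0.36, aligned them to mm10, merged 4 mice per condition, equalized the read number of the pools by downsampling and ran MACS2 with a q threshold of 0.01. Use of the 3 inputs in calling is not given in the sources used here, and they were not used here. The deposited lists give each peak a position and summit offset, a score, a ratio (fold enrichment) and −log10 p and q values.

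A shared peak had an overlap of 1 bp or more, and genes are those of the closest RefSeq start site (GRCm38). Motifs were sought on both strands in 201 bp around the summit. Other adult peaks were weighted to the adult-only peaks' deciles of fold enrichment. Differences have normal intervals. Shares were tested with the Cochran–Mantel–Haenszel chi-square test, GC and repeats with a z test, over peaks. All 5 classes of named gene were set by rule: the 10 strongest adult-only peaks, the 5 strongest at promoters with the motif, the 5 genes with most adult-only peaks, up to 4 per list whose adult peaks were all adult-only, and Dll1, Evpl and Krt14, which the study shows. Some genes these rules name are not reported here. Remaining list genes were named after their values were seen. Sequences leave out exons and chromosome 18. The sites, lists and motifs were chosen with earlier results of these data known. Software was pysam 0.24.0, scipy 1.17.1, pandas 2.3.3, numpy 2.4.6 and matplotlib 3.10.9 under Python 3.11.15. Steps were tested on simulated data. Alternatives changed overlap, thresholds, matching, motif window, promoter distance and gene assignment.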

Additional observations from a re-analysis of the deposited data

How the results depend on the processing

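No paired analysis was possible because each condition is 1 pooled list, and for the same reason no replicate could be left out. Across the alternatives run for it, the motif difference kept its direction and its call except when the adult list traded places with that of aged/anti-IL-17A/F, where it was 1.05 points. That exchange also gave −9.80 points for promoters, −2.36 for GC content, 2.50 for GGNNTTTCC and −0.43 for CTCF, 762 peaks called in 1 list alone (12.7%) in place of 3002 (35.2%), and 355 genes with such peaks alone in place of 1403. The promoter difference was 4.47 points when shared peaks had to overlap by 50% of both, 5.27 with fold enrichment crossed with width and 7.05 without matching. The GC difference was 0.80 and 1.44 points under the last 2. The cause of these changes was not tested. A −log10 q of at least 10 in adult left 1042 peaks (18.4%) and 526 genes. Equal numbers of peaks per list left 687 peaks (16.5%), 384 genes and 1 further motif past the threshold (KLF, GGGTGTGG, 3.46 points) in place of 2 (GGNNTTTCC and CTCF). Width differed by −64.4 bp in the main comparison. Its difference was −31.9 bp with 50% overlap, −77.7 with a −log10 q of at least 10, −48.9 in bins of −log10 q, −11.6 crossed with width, −160 without matching and −42.9 with fold enrichment crossed with −log10 q, a matching added after the data were seen. How near an aged pool came to the calling threshold at an adult-only site is not known from the lists, and fewer occupied sites and weaker enrichment in a pool cannot be told apart.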
